A study of Mus musculus with 12 samples.

Results

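Serum response factor (SRF) is a transcription factor, and the genes described here are Srf itself and 9 cytoskeletal and matrix genes known as its targets: Vcl, Flna, Tpm1, Acta2, Tagln, Myl9, Cnn1, Cyr61 and Ctgf. They were chosen as a list of 10 symbols, with earlier results of these data known. The genes were looked up by symbol in the deposited expression table of 12774 symbols. The table held 9 of the 10, and Cnn1 was not analysed here. Of these 9, 7 reached at least 1 RPM in at least 3 libraries and were tested, while Tagln and Myl9 did not.

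SRF binds a DNA element called the CArG box. In the actin branch of the pathway, its coactivators of the MRTF family are held by monomeric actin, and the assembly of actin into filaments frees them to enter the nucleus and switch on genes of filaments, adhesions and contraction. In a second branch, partners of the ternary complex factor (TCF) family let SRF drive immediate early genes after serum or growth factor. Cyr61 and Ctgf are also standard targets of the coactivator YAP, which acts through TEAD transcription factors and, like the MRTFs, responds to actin tension.

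Gene expression was measured by digital gene expression tags in C17.2, a mouse neural progenitor line. The study looked for genes that respond to thyroid hormone over time through each receptor. One stable line, C17.2a, carried a tagged thyroid hormone receptor alpha, and the other, C17.2b, a tagged receptor beta. The labels did not give the promoter of the transgene, nor whether a line was 1 clone. All cells, controls included, had been kept for 24 h without serum, and were harvested 6, 12 or 24 h after addition of 1e-07 M triiodothyronine (T3, the hormone form that binds these receptors) or with nothing added. Each combination of line, treatment and time had 1 library, 12 in all, and no group had a second one. Each T3 library was paired with the untreated one of its line and time, and these 6 pairs were treated as repeats. Whether the libraries stem from separate cultures is not stated, so p-values measure the spread between these libraries or pairs, which may be technical and which also contains real differences between times and lines.

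Levels are in RPM, tags scaled to a library total that is the same for all, as deposited. The size of 1 tag read from the lowest values implied 7.13e+06 to 1.91e+07 tags per library, and 3 tags then stood for 0.157 to 0.421 RPM, a floor for counting error only. Of the neural progenitor markers, 8 of 10 were in the table (Vim 1112 to 4941 RPM, Nes 70.2 to 642 RPM, Sox2 62.0 to 306 RPM). Of the smooth muscle and mesenchyme markers, 8 of 9 were in the table. Their summed level was mostly collagen, with Col1a1 at 747 to 5353 RPM, while Des, the desmin of muscle, stayed at 0 to 0.51 RPM and Myh11, the smooth muscle myosin, was not found. The C17.2a 24 h pair stood apart: 19.4% of the genes compared in it were at least 2-fold lower with T3. This share was 1.62%, 1.17%, 1.74% and 1.72% in the pairs of 6 and 12 h, and 1.86% in the C17.2b 24 h pair. Such a ratio cannot say which library of the pair differs. Below, the pair that stood apart means this pair, with no choice made between its libraries. Leaving out this pair gave the values set beside the main ones below, where 15.0% of 10391 genes were called in the shared T3 response. In such bulk samples, fewer cells of a type and less RNA per cell cannot be told apart.

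Promoters of the members the results turn on are shown to let a reader see which carry exact matches to the elements of the 2 regulatory systems. RefSeq promoters of GRCm38.p6, 250 bases before to 50 after the start, were found for 7 of the 10 listed genes and not for Tagln, Cnn1 or Ctgf. They were searched on both strands for an exact CArG box (CC, then 6 bases of A or T, then GG) and for the TEAD motif GGAATG. A CArG box occurred in 1.63% and the TEAD motif in 14.7% of the 32851 promoters of this length in the table, and in 3 and 5 of the 7 members. The stretches are chr17:46556113-46556412 (minus strand), chr14:20929148-20929447 (plus strand), chr9:67049164-67049463 (minus strand), chr19:34255324-34255623 (minus strand) and chr3:145649936-145650235 (minus strand, Cyr61, now named Ccn1). They are written 5′ to 3′ along the gene, with the matches in capitals, which for Cyr61 are the motif on the other strand.
Srf: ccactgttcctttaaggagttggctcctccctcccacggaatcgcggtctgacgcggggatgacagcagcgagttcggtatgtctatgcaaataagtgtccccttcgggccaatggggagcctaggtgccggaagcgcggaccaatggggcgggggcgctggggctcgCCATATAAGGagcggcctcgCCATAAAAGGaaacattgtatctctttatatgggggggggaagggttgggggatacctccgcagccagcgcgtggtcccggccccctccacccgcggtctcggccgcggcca
Vcl: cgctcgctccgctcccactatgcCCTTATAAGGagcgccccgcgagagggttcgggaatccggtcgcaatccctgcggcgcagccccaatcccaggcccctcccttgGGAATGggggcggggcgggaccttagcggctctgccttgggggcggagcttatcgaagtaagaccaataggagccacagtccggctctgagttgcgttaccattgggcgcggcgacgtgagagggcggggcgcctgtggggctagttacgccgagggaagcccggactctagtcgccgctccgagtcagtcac
Tpm1: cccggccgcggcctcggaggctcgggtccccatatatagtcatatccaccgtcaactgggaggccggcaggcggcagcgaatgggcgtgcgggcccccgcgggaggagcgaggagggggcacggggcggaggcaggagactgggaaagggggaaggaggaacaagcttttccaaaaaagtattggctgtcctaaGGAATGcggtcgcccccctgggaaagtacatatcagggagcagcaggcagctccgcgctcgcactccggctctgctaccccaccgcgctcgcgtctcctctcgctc
Acta2: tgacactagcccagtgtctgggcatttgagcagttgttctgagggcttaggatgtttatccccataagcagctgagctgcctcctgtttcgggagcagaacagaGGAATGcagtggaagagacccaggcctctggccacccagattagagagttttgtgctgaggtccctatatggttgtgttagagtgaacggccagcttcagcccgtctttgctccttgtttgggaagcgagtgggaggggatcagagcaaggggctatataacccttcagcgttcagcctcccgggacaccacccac
Cyr61: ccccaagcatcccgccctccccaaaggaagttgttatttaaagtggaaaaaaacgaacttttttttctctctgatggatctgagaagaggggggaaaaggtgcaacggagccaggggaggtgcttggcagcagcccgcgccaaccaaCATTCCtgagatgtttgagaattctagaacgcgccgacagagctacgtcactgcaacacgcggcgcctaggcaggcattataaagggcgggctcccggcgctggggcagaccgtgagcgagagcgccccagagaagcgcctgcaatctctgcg
In these letters, Srf has 2 CArG boxes, which begin 82 and 62 bases before the start. Vcl has 1 CArG box at 227 bases and 1 TEAD motif at 143 bases before the start, with no overlap between them. Tpm1, Acta2 and Cyr61 have 1 TEAD motif each, at 56, 146 and 103 bases before the start. Of the members not printed, Flna has a TEAD motif at 146 bases and Myl9 a CArG box at 161 bases before the start. These are matches of letters and not measured binding sites. CArG boxes that depart from the exact pattern were not searched for, so a member without a match here, such as Acta2, may still carry one.

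With T3, 3 of the 7 tested members fell across the 6 pairs: Vcl, Tpm1 and Flna, which build adhesions and the actin network. Over all 10577 genes tested, 2.35% were called lower (limma, Benjamini-Hochberg adjusted p under 0.05). The median log2 fold change was -0.51 over the 7 members and -0.01 over all genes, and 6 of the 7 members were below 0 against 51.2% of all genes. Because the list was chosen with earlier results of these data known, this contrast is a description and not a test. Cyr61, Ctgf and Srf were below 0 without passing the test, and Acta2 was above it. Among the neural progenitor markers, 3 of 8 were called lower with T3 (Vim, Sox2 and Notch1). The 8 ran from Sox2 at -1.12 to Fabp7 at -0.06. Their summed level, which was mostly Vim, was 2408 to 5853 RPM untreated and 1424 to 3110 RPM with T3. The part of these markers in the members' values was not tested. All log2 fold changes refer to log2(RPM + 1), with the standard error (SE) of the fit.

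Vcl encodes vinculin, which ties the integrin adhesion to actin filaments. In C17.2a it stood at 124, 121 and 140.1 RPM in untreated cells at 6, 12 and 24 h, and at 87.0, 86.2 and 87.8 RPM with T3. In C17.2b it stood at 102, 103 and 142 RPM untreated and at 76.1, 71.2 and 101 RPM with T3. All 6 T3 libraries lay below all 6 untreated ones, although the highest of the former, C17.2b at 24 h, was within 1 RPM of the lowest of the latter, C17.2b at 6 h. Vcl was the only member with such a separation, which 0.529% of the genes tested showed. The pairs were close to each other, with a change by T3 of -37.4% to -25.05%, and the log2 fold change was -0.51 (SE 0.08, n = 6 pairs, adjusted p = 0.00591). It was -0.48 (adjusted p = 0.000875) without the C17.2a 24 h pair. The call held without any 1 of the pairs and was lost only when the pairing was ignored (adjusted p = 0.0984).

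Flna encodes filamin A, which crosslinks actin filaments and binds integrins. Its untreated levels in C17.2a were 307, 281 and 316 RPM at 6, 12 and 24 h, against 188, 179 and 179.99 RPM with T3. In C17.2b the untreated levels were 200.5, 229 and 312 RPM and those with T3 were 200.46, 151 and 253 RPM. The 3 C17.2a pairs were therefore well apart, while the 6 h pair of C17.2b was level. The log2 fold change over the pairs was -0.51 (SE 0.12, adjusted p = 0.0322). That call was lost when 1 of 4 pairs was left out, namely the C17.2a pair of 6 h (adjusted p = 0.113) or of 12 h (0.120), or the pair that C17.2b gave at 12 h (0.123) or at 24 h (0.0662). It was also lost with no variance trend (0.0579) and with the pairing ignored (0.224). Flna was at -0.45 (adjusted p = 0.0134) without the C17.2a 24 h pair.

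Tpm1 encodes an alpha tropomyosin, the coiled coil that lies along the actin filament. In C17.2a it was at 82.2, 59.9 and 177 RPM untreated and 63.6, 39.5 and 82.3 RPM with T3. In C17.2b it was at 57.0, 63.2 and 149.55 RPM untreated and 45.2, 25.8 and 87.5 RPM with T3. The ranges of the treatments overlapped because the level also followed time, yet T3 was lower in every pair, with changes of -59.2% to -20.7%. With 2 tags added to each library before the ratio, Tpm1 and Vcl were lower in 6 of 6 pairs, a pattern of 6.05% of the genes tested, and Flna was not counted because of its level pair. The log2 fold change of Tpm1 was -0.73 (SE 0.14, adjusted p = 0.0150). It lost its call when the C17.2b pair of 12 h (-0.63, adjusted p = 0.0587) or of 24 h (-0.73, 0.0570) was left out, and with the pairing ignored (0.594). Its value without the C17.2a 24 h pair was -0.66 (adjusted p = 0.00462).

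Acta2 encodes the alpha actin of smooth muscle and myofibroblasts, and it did not follow the other members. In C17.2a its untreated level was 279.8 RPM at 6 h, 192 RPM at 12 h and 42.7 RPM at 24 h, against 191, 136 and 115 RPM with T3. In C17.2b the untreated level was 81.8, 65.6 and 47.1 RPM, against 79.9, 63.3 and 111 RPM with T3. T3 was lower in the pairs of 6 and 12 h, with changes of -31.9% and -29.3% in C17.2a and of -2.32% and -3.54% in C17.2b, and higher in both pairs of 24 h. This order of signs was read from Acta2 in these same data. It was shown by 1.33% of the genes tested, a share given as a description and not as a test. The pooled log2 fold change was accordingly small against its error, at 0.25 (SE 0.27, adjusted p = 0.700), 0.02 (adjusted p = 0.972) without the C17.2a 24 h pair, and -0.28 (adjusted p = 0.121) without the 24 h libraries.

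Both 24 h pairs of Acta2 were past 2-fold, with T3 2.70-fold higher in C17.2a and 2.35-fold higher in C17.2b. In those pairs alone, 6.51% and 4.95% of genes were at least 2-fold higher, and a single pair has no test. Over both pairs, Acta2 rose by 1.32 on the log2 scale (SE 0.20, adjusted p = 0.0371), the only member called at 24 h, where 0.681% of genes were called higher. The call was lost without the 6 h or 12 h pair of either line (adjusted p 0.127 to 0.155), with no variance trend (0.0693) and with no filter on low levels (0.0533). Without the C17.2a 24 h pair, the rise in C17.2b alone was 1.22, from a single pair of that time and so given without a p-value. The untreated 24 h libraries, the lowest of the 12 for Acta2, are the controls of this rise and also enter the comparison of times described further on.

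Tagln, the actin-binding transgelin of smooth muscle, and Myl9, a regulatory light chain of myosin, stayed near the counting floor. Tagln was listed at up to 1.22 RPM, in C17.2a untreated at 24 h, and at 0.10 to 0.70 RPM in 10 of the other libraries, with no value in C17.2b T3 at 6 h. Myl9 was listed at up to 0.92 RPM, in the same C17.2a untreated 24 h library, and had no value in C17.2b untreated at 12 h. No difference between groups was detectable at this depth, and no fold is given. How tags shared by near-identical family members (actins, tropomyosins, filamins, myosin light chains) were assigned was not given in the sources used here, so levels of single members of these families are uncertain.

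**Figure D1:**
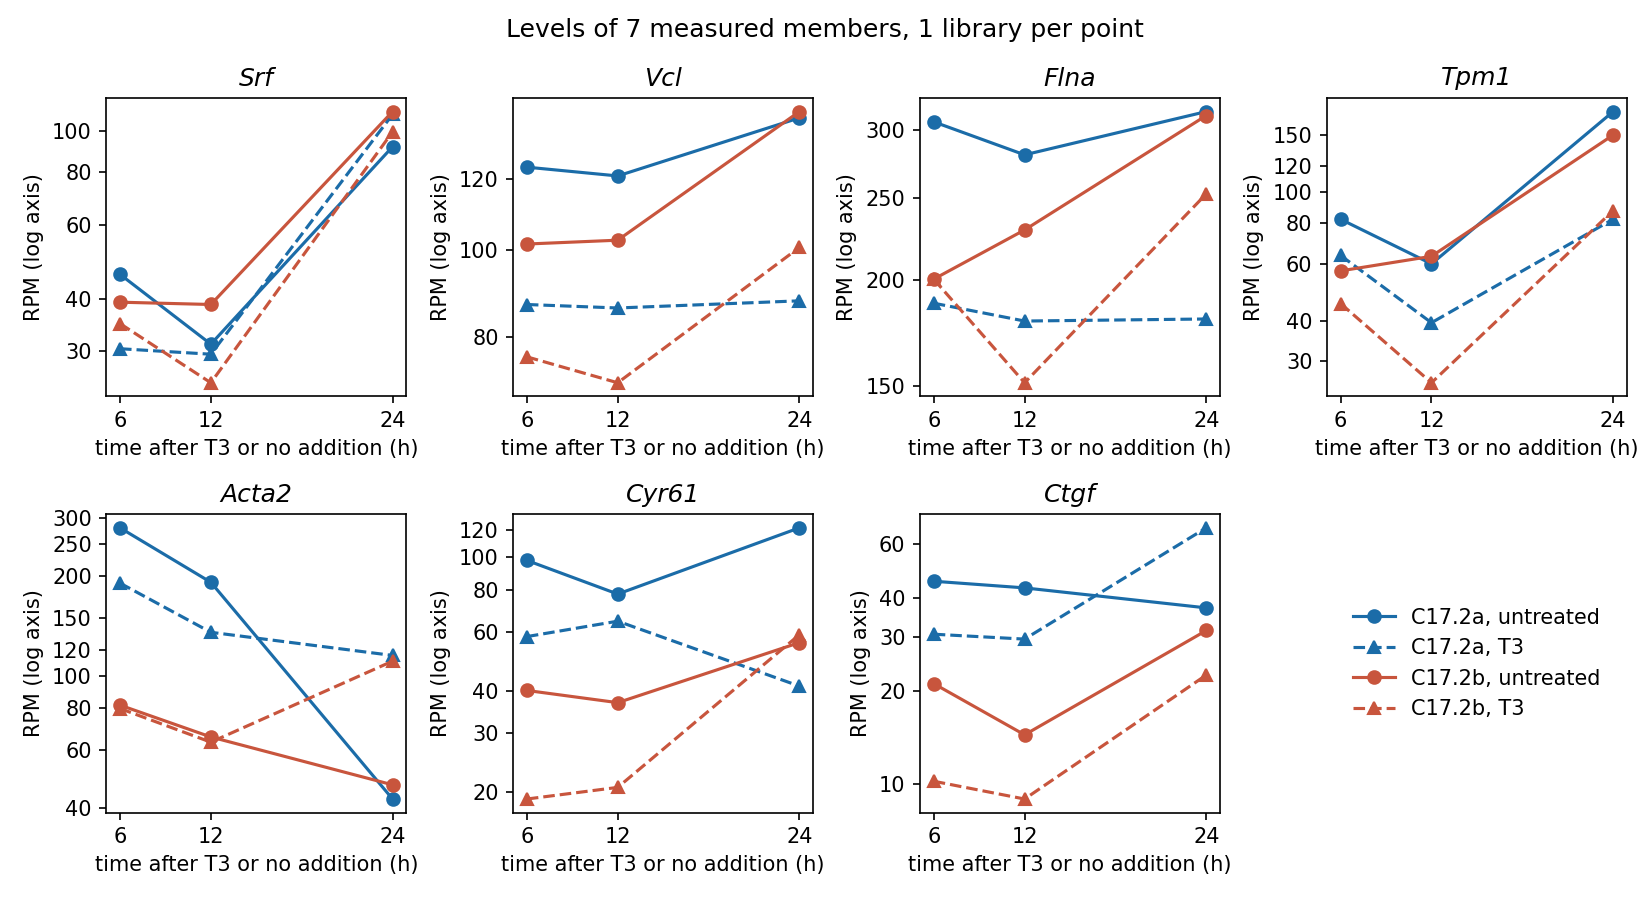
Levels of the 7 tested members in RPM (log axis, a separate range in each panel) against the time of treatment in hours. Each point is 1 library, blue for C17.2a and red for C17.2b, with circles and full lines for untreated cells and triangles and dashed lines for T3; lines join libraries of a group. All Vcl points with T3 (71.2 to 101 RPM) lie below all untreated ones (102 to 142 RPM), Acta2 crosses over at 24 h, and Srf and Tpm1 are highest at 24 h in each line and treatment.

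Cyr61 and Ctgf encode secreted matricellular proteins of the CCN family that bind integrins. Cyr61 stood at 97.65, 77.55 and 122 RPM in untreated C17.2a at 6, 12 and 24 h, and at 57.95, 64.4 and 41.3 RPM with T3. In C17.2b it stood at 40.1, 36.9 and 55.6 RPM untreated and at 19.05, 20.6 and 58.7 RPM with T3. T3 was lower in 5 of the 6 pairs, and the C17.2b 24 h pair was the exception, at 5.61% higher. The log2 fold change was -0.72 (SE 0.19) and narrowly missed the threshold (adjusted p = 0.0648). It passed under median-ratio scaling (0.0480), without the C17.2a 24 h pair (-0.55, 0.0241), without the C17.2b 24 h pair (-0.88, 0.0370) and without all 24 h libraries (-0.71, 0.00260). Under the last of these, 13.4% of genes were called.

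Ctgf stood at 45.5, 43.3 and 37.3 RPM in untreated C17.2a, and at 30.6, 29.5 and 67.75 RPM with T3. In C17.2b it stood at 21.2, 14.4 and 31.5 RPM untreated and at 10.2, 8.94 and 22.6 RPM with T3. T3 was lower in 5 of 6 pairs. The exception was the C17.2a 24 h pair, the one that stood apart, where T3 was 81.8% higher. The log2 fold change was -0.39 (SE 0.21, adjusted p = 0.397) over the 6 pairs. Without the C17.2a 24 h pair it was -0.63 (adjusted p = 0.00148), and without all 24 h libraries -0.68 (0.00213), settings under which 15.0% and 13.4% of genes were called.

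The 2-fold mark was passed in few single pairs. In the C17.2b 6 h pair, Cyr61 and Ctgf were 2.09-fold and 2.04-fold lower with T3, where 1.74% of genes were that much lower. In the C17.2b 12 h pair, Tpm1 was 2.44-fold lower, where 1.72% of genes were. In the C17.2a 24 h pair, Cyr61 was 2.95-fold and Tpm1 2.14-fold lower, but 19.4% of all genes passed the mark in that pair. No member passed it in the C17.2a pairs of 6 and 12 h.

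Srf itself was not called with T3. Its levels in C17.2a were 45.7, 31.2 and 91.9 RPM untreated and 30.4, 29.5 and 109.6 RPM with T3. In C17.2b they were 39.2, 38.7 and 111 RPM untreated and 34.9, 25.2 and 99.7 RPM with T3. T3 was lower in 5 of the 6 pairs, with changes of -34.85% to -5.36%, and higher in the C17.2a 24 h pair. The log2 fold change was -0.22 (SE 0.13, adjusted p = 0.426), and -0.31 (adjusted p = 0.0637) without the C17.2a 24 h pair.

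**Figure D2:**
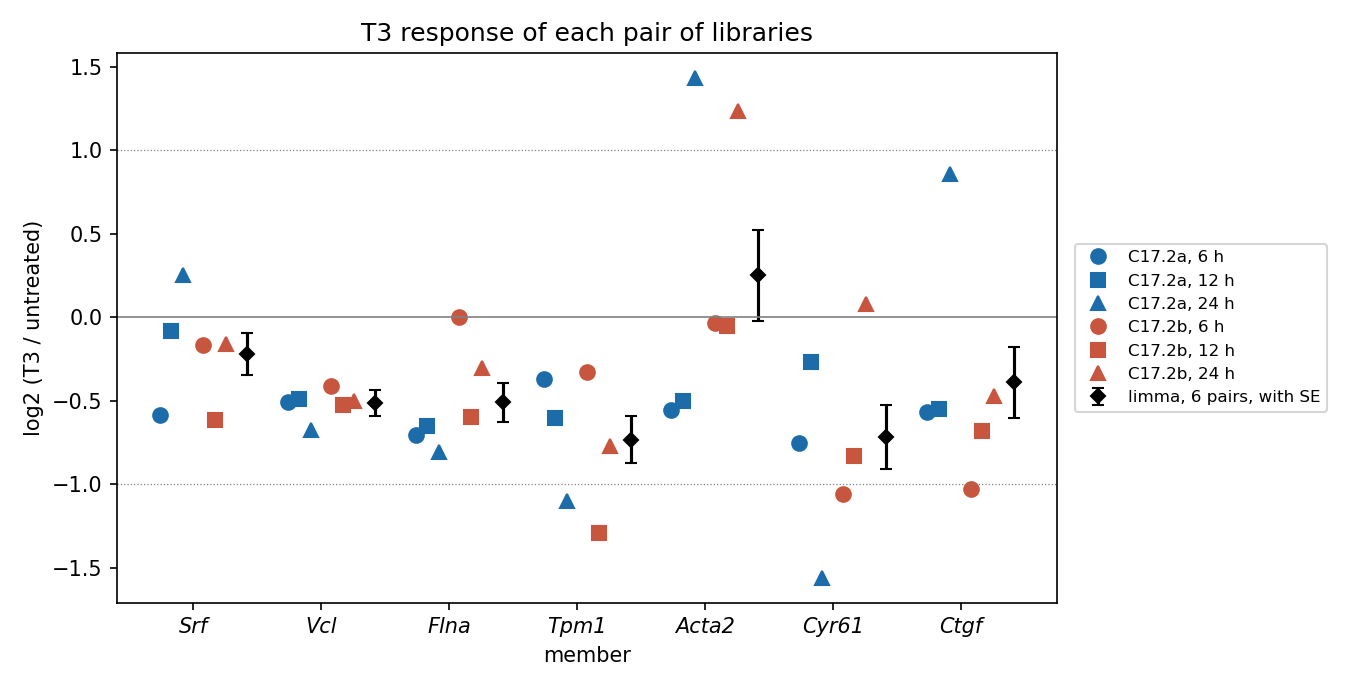
Log2 ratio of T3 to untreated level in each of the 6 pairs for the 7 tested members (colour for the line, shape for the time), with 2 tags added to each library, and the limma log2 fold change over the pairs with its SE as black diamonds. Dotted lines mark a 2-fold difference. The 6 Vcl pairs lie between -0.67 and -0.41, while those of Acta2 spread from -0.55 to 1.43 with both 24 h pairs above 1.

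Taken line by line, no member was called, and limma gave the same sign in both lines for all 7. In C17.2a, 0.463% of genes were called lower. Of the members, 4 had an unadjusted p under 0.05, against 16.5% of all genes, led by Flna (-0.72, SE 0.14, adjusted p = 0.0524) and Vcl (-0.55, SE 0.12, 0.0727). In C17.2b, 0.86% of genes were called lower. There 3 members had an unadjusted p under 0.05, against 13.0% of all genes, among them Vcl (-0.48, SE 0.12, adjusted p = 0.0793) and Tpm1 (-0.79, SE 0.21, 0.0971). Leaving out the C17.2a 24 h pair gave 2 calls in C17.2a, Flna (adjusted p = 0.0245) and Vcl (0.0414), and 3 in C17.2b, Ctgf (0.00596), Tpm1 (0.00756) and Vcl (0.00824), where 4.45% and 11.3% of genes were called. The test of the difference between the lines called no member and no gene (0.0% higher, with 583 genes at an unadjusted p under 0.05 and no member among them). Flna had the smallest unadjusted p of the members there, with a C17.2b response 0.42 (SE 0.19) above that of C17.2a (adjusted p = 0.723).

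Taken time by time, all 7 members were below 0 at 6 h and at 12 h, and none was called. At 6 h, the median of the members was -0.37 and 0.0473% of genes were called lower. Ctgf (-0.77), Cyr61 (-0.89) and Vcl (-0.46) had an unadjusted p under 0.05 there, as did 7.61% of all genes. At 12 h, the median was -0.54 and 0.132% of genes were called lower. Tpm1 (-0.93), Flna (-0.62) and Vcl (-0.50) had an unadjusted p under 0.05 at that time, as did 7.92% of all genes. When the 24 h pair of either line was left out, the same 3 members passed at each of these times, with adjusted p of at most 0.0457 at 6 h and 0.0358 at 12 h. The share of genes called was then 6.54% or 6.59% at 6 h and 6.64% or 6.67% at 12 h. At 24 h, beside the rise of Acta2, Tpm1 stood at -0.93 (SE 0.21, adjusted p = 0.117) and Vcl at -0.58 (SE 0.15, 0.161). Without the C17.2b pair of 24 h, the C17.2a pair that stood apart is the only one of that time. Acta2 and Ctgf (0.85) were then above 0, and Vcl (-0.67), Flna (-0.81), Tpm1 (-1.09) and Cyr61 (-1.54) below it. The spread under that setting comes from the pairs of 6 and 12 h, with 2 residual degrees of freedom. No p-value is therefore given for it. The 24 h values of Cyr61, Ctgf and Srf differed in sign between the lines.

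The response of Acta2 at 24 h lay 1.61 (SE 0.28) above that at 6 h on the log2 scale, with an unadjusted p of 0.000755 in limma. Over all genes the adjusted p was 0.727, and 0.0% of genes were called higher in this comparison (593 had an unadjusted p under 0.05, and Acta2 was the 1 member among them). The Acta2 difference was 1.51 without the C17.2a 24 h pair and 1.71 without the C17.2b 24 h pair. Each of these fits left a single pair at 24 h, so no p-value is given for them. Ctgf, at 0.96 (SE 0.45, adjusted p = 0.727), was at 1.62 without the C17.2b 24 h pair, when the C17.2a pair that stood apart was the only one of 24 h.

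Without T3, the matricellular genes were lower in C17.2b than in C17.2a: Cyr61 and Ctgf were called, where 5.92% of the 10192 genes tested were called lower. The log2 difference was -1.15 (SE 0.12, adjusted p = 0.000501) for Cyr61, which was 2.43-, 2.10- and 2.19-fold higher in C17.2a at 6, 12 and 24 h. For Ctgf it was -0.94 (SE 0.21, adjusted p = 0.0231), with C17.2a 2.15-, 2.97- and 1.18-fold higher. In both, all 3 untreated C17.2b libraries lay below all 3 of C17.2a, as for 6.49% of the genes. The Cyr61 call was lost with no block for time (adjusted p = 0.354). The Ctgf call was lost under that setting (0.704), without the 6 h (0.0719) or the 12 h libraries (0.0870), under median-ratio scaling (0.0593), with no filter on low levels (0.0689) and with no variance trend (0.0601).

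Acta2 was 3.42- and 2.92-fold higher in untreated C17.2a than in C17.2b at 6 and 12 h, and at 24 h both lines were low. Its log2 difference was -1.05 (SE 0.29, adjusted p = 0.0539), and -1.65 without the 24 h libraries, in a fit with 1 residual degree of freedom that called 10.7% of genes. Flna (-0.31, SE 0.14, adjusted p = 0.238), Tpm1 (-0.23, SE 0.14, 0.371), Vcl (-0.16, SE 0.12, 0.475) and Srf (0.12, SE 0.14, 0.669) did not pass. The summed level of the 8 smooth muscle and mesenchyme markers in the table was 5002 to 8174 RPM in untreated C17.2a and 2676 to 4642 RPM in untreated C17.2b. Its part in the difference of Cyr61, Ctgf and Acta2 was not tested. With T3 the line difference of Cyr61 and Ctgf was also present at 6 and 12 h, at 3.02- and 3.10-fold for Cyr61 and 2.96- and 3.25-fold for Ctgf, while at 24 h Cyr61 was 1.42-fold higher in C17.2b and Ctgf 2.98-fold higher in C17.2a. Both 24 h values rest on the C17.2a T3 library of the pair that stood apart.

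**Figure D3:**
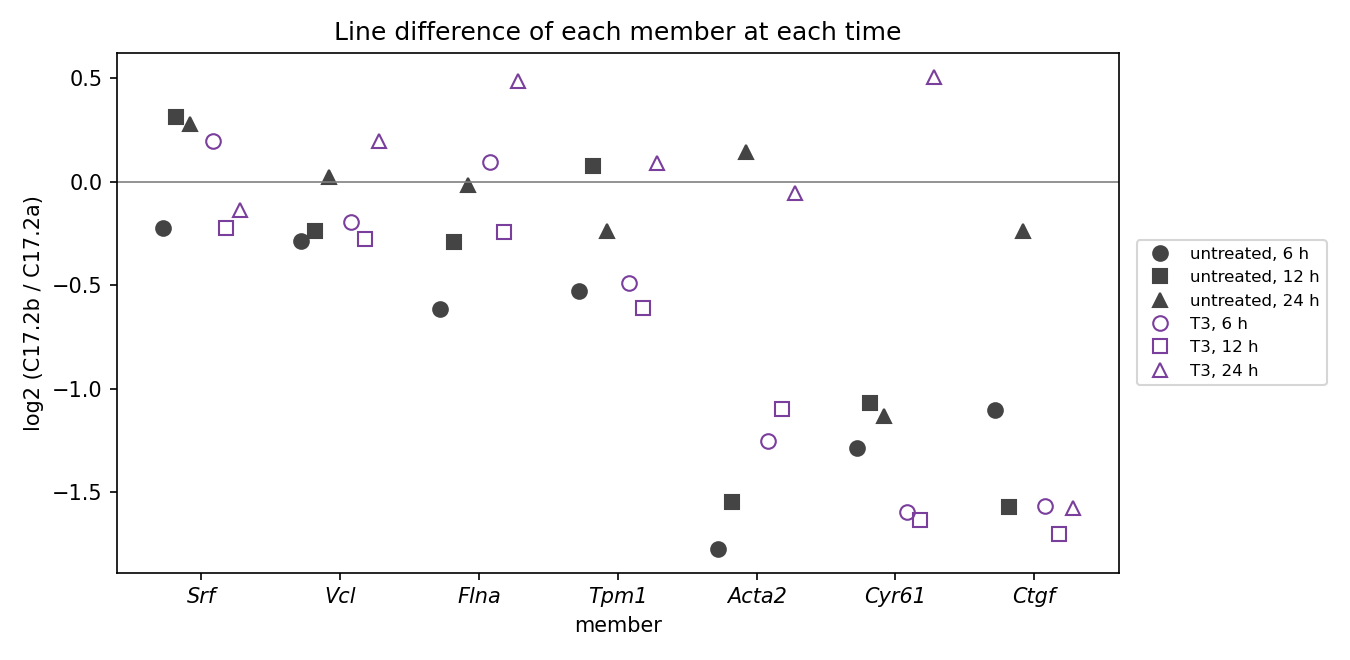
Log2 ratio of the C17.2b to the C17.2a level of the 7 tested members at 6, 12 and 24 h (circle, square, triangle), in untreated cells (filled) and with T3 (open); each point is 1 library against 1. Untreated Cyr61 lies between -1.28 and -1.07 at the 3 times, and Acta2 moves from -1.77 at 6 h to 0.14 at 24 h.

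Time without T3 was compared within the untreated libraries. From 6 to 24 h, Srf, Tpm1 and Cyr61 rose, where 43.0% of genes were called higher, and Acta2 fell, where 13.1% were called lower. These counts of 3 and 1 of 7 are near the shares of all genes and are not a result about the members. The median of all genes in this comparison was itself at 0.40, and 0.11 under median-ratio scaling, so values are to be read against that shift. Srf rose by 1.24 (SE 0.17, adjusted p = 0.000285) and Tpm1 by 1.24 (SE 0.17, 0.000260). Under median-ratio scaling these were 0.92 and 0.91 and still called. In Srf, every 24 h library, with T3 or without, lay at 91.9 to 111 RPM, above the 25.2 to 45.7 RPM of the 8 earlier libraries.

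Acta2 fell by 1.74 (SE 0.36, adjusted p = 0.00246) over the same time, and by 2.05 under median-ratio scaling. The rise of Cyr61 (0.39, SE 0.15, adjusted p = 0.0433) was about as large as the shift of all genes and was 0.07 under median-ratio scaling (adjusted p = 0.678). It was also lost with no variance trend (0.0919) and with time as a number (0.125). Vcl (0.33, SE 0.15, adjusted p = 0.0809), Flna (0.34, SE 0.17, 0.124) and Ctgf (0.14, SE 0.26, 0.681) did not pass, and Ctgf was -0.18 under median-ratio scaling. The cytoplasmic actin Actb, at 936 to 992 RPM at 6 h and 2408 to 2416 RPM at 24 h in untreated cells, rose by 1.32 (SE 0.20, adjusted p = 0.000451), and Actg1 by 1.40 (SE 0.17, 0.000154). Acta2 and these cytoplasmic isoforms thus had opposite signs over the same libraries. Mkl1 and Mkl2, the genes of both broadly expressed MRTF coactivators, rose by 1.48 (SE 0.20, adjusted p = 0.000261) and 1.13 (SE 0.22, 0.00176), and Rhoa was at -0.36 (SE 0.16, 0.0789). Of 21 actin and contractile genes, 12 rose and 3 fell, where 43.0% of all genes were called higher and 13.1% lower. They ran from Cnn2 at 2.78 to Actn4 at -2.18, with a median of 0.67 against 0.40 for all genes. These counts are a description and not a result about the list.

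Other genes of the pathway were called in both directions with T3, where 4.09% of all genes were called higher and 2.35% lower. Of 23 tested genes of actin isoforms and contraction, 2 rose and 2 fell, with a median of -0.20 and 21 below 0. Flnc, a filamin of muscle (-0.70, SE 0.10, adjusted p = 0.00510), and Cnn3, a calponin (-0.42, SE 0.10, 0.0316), fell, as Flna and Tpm1 did. Mylk, the kinase that activates myosin light chains (1.07, SE 0.16, adjusted p = 0.00551), and Smtn, smoothelin of contractile smooth muscle (0.93, SE 0.14, 0.00500), rose. Actb (-0.20, SE 0.16, adjusted p = 0.580) and Actg1 (-0.47, SE 0.18, 0.207) did not pass. Without the C17.2a 24 h pair, 2 of 22 were called higher and 3 lower, where 9.14% and 5.81% of all genes were, and the median was -0.12.

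Of 19 focal adhesion and LIM genes, the group of Vcl, none was called and 17 were below 0, with a median of -0.29. An unadjusted p under 0.05 in limma was found for 6 of them, against 18.1% of all genes. The smallest p belonged to Tln2, a talin (-0.39, SE 0.11, adjusted p = 0.0775), Pdlim7 (-0.48, SE 0.15, 0.110) and Itgav, an integrin alpha chain (-0.37, SE 0.12, 0.113). Without the C17.2a 24 h pair, 4 of the 19 were called lower, where 5.81% of all genes were, and the median was -0.19. The 4 were Fhl2 (-0.51, adjusted p = 0.00325), Itgav (-0.45, 0.00925), Tln2 (-0.39, 0.0258) and Pdlim5 (-0.33, 0.0410). Of 23 coactivators and regulators of actin assembly, 2 rose and 2 fell, with a median of -0.11. Rhob, a small GTPase, rose by 1.32 (SE 0.18, adjusted p = 0.00314) and Fhod1, a formin, by 0.58 (SE 0.11, 0.0121). Tmsb4x, the thymosin that holds actin monomers, fell by 1.16 (SE 0.17, adjusted p = 0.00450). Its levels with T3 of 112 to 261 RPM all lay below its untreated levels of 314 to 449.98 RPM, as for 0.529% of the genes tested. Arhgef2, a guanine nucleotide exchange factor, fell by 0.58 (SE 0.09, adjusted p = 0.00700). Mkl1 (-0.55, SE 0.22, adjusted p = 0.214), Mkl2 (-0.24, SE 0.12, 0.360) and Rhoa (-0.22, SE 0.11, 0.344) did not pass. Without the C17.2a 24 h pair, 3 of the 23 were called higher and 4 lower, where 9.14% and 5.81% of all genes were. The median was then -0.15, and Mkl1 was at -0.31 (adjusted p = 0.0854).

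Of 19 YAP and TEAD targets and factors, F3, tissue factor, rose by 2.13 (SE 0.23, adjusted p = 0.00113), with 6.13 to 15.9 RPM untreated and 15.6 to 136 RPM with T3, and Jub (now Ajuba), a LIM protein, fell by 0.61 (SE 0.13, adjusted p = 0.0241). The median of this list was -0.09. Of 15 immediate early genes, which include Srf, Fosl1 rose (0.83, SE 0.20, adjusted p = 0.0402) and Atf3 fell (-0.88, SE 0.18, 0.0190), with a median of 0.02. Without the C17.2a 24 h pair, 1 YAP and TEAD gene was called higher and 3 lower, and 2 of 14 immediate early genes higher and 1 lower. Under that setting 9.14% of all genes were called higher and 5.81% lower.

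Between the untreated lines, 5 of 19 YAP and TEAD genes were lower in C17.2b and none higher, with a median of -0.29 against -0.04 for all genes. Over all genes, 2.93% were called higher in C17.2b and 5.92% lower. Cyr61 and Ctgf are not counted in that list. Its largest differences were those of Edn1, endothelin (-1.35, SE 0.19, adjusted p = 0.00247), Ankrd1 (-1.18, SE 0.23, 0.0108) and Thbs1, thrombospondin (-1.16, SE 0.20, 0.00614). Of 21 actin and contractile genes, 3 were lower in C17.2b, Tpm2 (-0.83), Tpm3 (-0.72) and Actn1 (-0.60), and Flnc was higher (0.67), with a median of -0.32. Of 14 immediate early genes, 4 were higher, led by Dusp1 (1.14), Atf3 (1.11) and Ier3 (0.87), and Klf4 was lower (-0.76), with a median of 0.19. Of 19 adhesion genes only Pdlim7 (-0.78) was called, and of 21 coactivators and regulators of actin assembly only Rnd3 (-0.76). Actb (-0.07, adjusted p = 0.848), Actg1 (-0.42, 0.107), Mkl1 (-0.01, 0.986), Mkl2 (-0.18, 0.606) and Rhoa (-0.27, 0.243) did not pass.

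**Figure D4:**
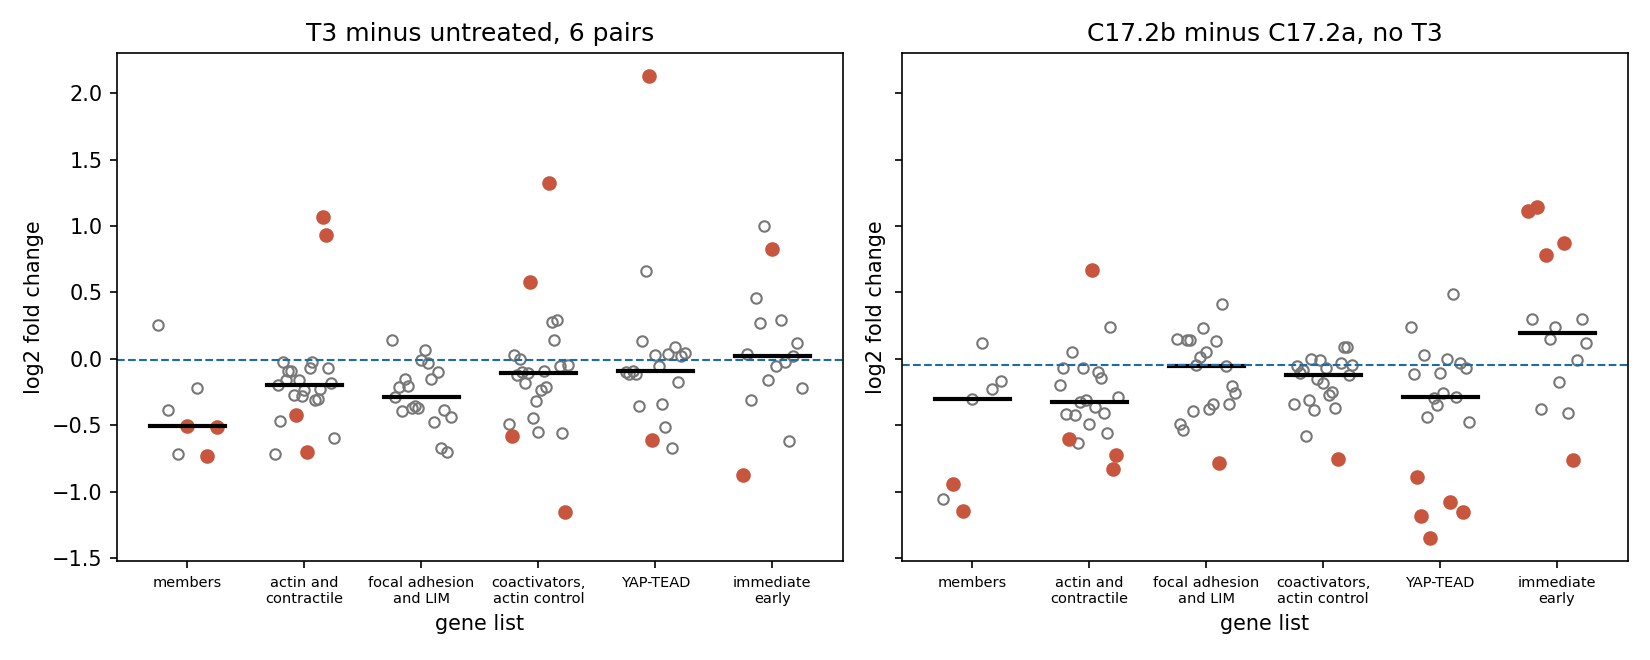
Log2 fold change of each tested gene in the members and 5 related lists, for T3 against untreated over 6 pairs (left) and C17.2b against C17.2a without T3 (right). Filled red points passed an adjusted p of 0.05, black bars are list medians and the dashed line is the median of all genes. Members have a median of -0.51 on the left, where 3 are called, and -0.31 on the right, where 2 are called.

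Over the 12 libraries, on the log2 scale, Vcl and Flna had the closest patterns of any pair of members (Pearson r = 0.94, across libraries that share times and lines and given as a description). Tpm1 followed Vcl (0.84) and Srf (0.83), Cyr61 followed Vcl (0.77) and Ctgf (0.75), and Acta2 followed none, with r from -0.34 to 0.43. Outside the list, the 5 genes of 9585 whose pattern was most like the mean of the standardised members were Tec (0.92), Fam101b (0.91), Spata2 (0.91), Jazf1 (0.91) and Farp1 (0.91).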

How the data were processed

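Messenger RNA was measured in 12 libraries, 1 for each of 2 lines, 2 treatments and 3 times. The authors deposited 1 table of RPM, tags scaled to the same total in every library, a unit read from the column sums. Per the submitters' processing notes the genome build was mm9, while the aligner and the rule assigning tags to genes are not given in the sources used here. Promoters are from another build, GRCm38.p6, and no coordinates of mm9 are printed. N/A was read as 0. Low values lay on whole multiples of the 1-tag step in 90.0% to 93.8% of cases (tolerance 0.0055 RPM), which did not give whole tags for nearly all genes. The design fixed limma for normalized values and a count model otherwise, so limma was used.

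A gene entered a fit when 3 or more of its libraries had 1 RPM or more. Tests were run on log2(RPM + 1) with limma 3.58.1 in R 4.3.3 (lmFit, eBayes with a trend, Benjamini-Hochberg adjustment over all genes tested, threshold 0.05). This scale understates changes of low genes. T3 was fitted with each pair as a block over all 12 libraries, and lines and times without T3 over the 6 untreated libraries, with time and line as the other factor. The fits had 5 residual degrees of freedom for the shared response, 4 by line, 3 by time and 2 in untreated cells. Single pairs were described by ratios after adding 2 tags, called at 2-fold with at least 50 tags in the pair. The fits were tested on simulated data. Alternatives were median-ratio scaling, filters, pseudocounts of 0.5 and 5, no variance trend, other blocks, each line alone, all 12 libraries for the lines, time as a number, other priors of 0.5 and 5 tags, and leaving out each pair or time. Leaving out all 24 h libraries was added after seeing the data.

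The members and lists were chosen with earlier results of these data known. All members found were named, with Mkl1, Mkl2, Actb, Actg1 and Rhoa. In each list described, up to 3 genes past the threshold in each direction were named by size, or the 3 smallest p where none passed. The 5 genes most like the members were taken by Pearson r over 12 libraries.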

Additional observations from a re-analysis of the deposited data

Results flagged for a closer look

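The T3 response of Acta2 differed between times: the log2 fold change at 24 h was 1.61 (SE 0.28) above that at 6 h. T3 was higher in both pairs of 24 h. At 6 h it was lower in C17.2a, with a change of -31.85%, while the C17.2b pair was nearly level, at -2.32%. The difference had an unadjusted p of 0.000755 in limma and failed the adjustment over all genes (adjusted p = 0.727). Its value under the alternatives ran from 1.35 to 1.87.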

How the results depend on the processing

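Of 868 member values under alternatives, 777 kept their direction and their side of the threshold, 26 lost a call, 41 gained one and 24 changed sign, and no cause was tested. Members called in the T3 response shared by the pairs numbered 3, and 0 with the pairing ignored, 5 without the 24 h libraries and 1 to 5 when 1 pair was left out. In C17.2a the number was 0, then 3 without the 24 h libraries and 0 to 2 without 1 pair. In C17.2b it was 0, then 3 in that line alone, 4 without the 24 h libraries and 0 to 3 without 1 pair. Leaving out 1 pair gave 0 to 3 at 6 h and 0 to 3 at 12 h. At 24 h and for 24 h minus 6 h it gave 0 wherever both 24 h pairs stayed in. The 1 call at 24 h became 0 with no filter and 0 with no trend. Between untreated lines 2 became 1 under median-ratio scaling, 1 with no filter, 1 with no trend, 0 with no time block and 1 to 3 without 1 time.

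Signs changed in these cases. Without the 24 h libraries, Acta2 was -0.28 in the shared response, -0.52 in C17.2a (adjusted p = 0.0201) and -0.042 in C17.2b, and the line difference of Cyr61 was -0.42. With 1 pair left out, in C17.2a Ctgf ran from -0.55 to 0.15, Srf from -0.32 to 0.088 and Acta2 from -0.52 to 0.46, and in C17.2b Acta2 from -0.042 to 0.59. The line difference ran from -0.16 to 0.90 for Acta2, -0.33 to 0.14 for Tpm1, -0.085 to 0.55 for Cyr61 and -0.40 to 0.017 for Srf. At 24 h, Ctgf ran from -0.46 to 0.85, Cyr61 from -1.54 to 0.077 and Srf from -0.16 to 0.25, and for 24 h minus 6 h Flna from -0.56 to 0.15 and Cyr61 from -0.65 to 0.97. Ctgf in untreated cells over time was -0.18 under median-ratio scaling.

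Over all genes, calls ran from 240 (pairing ignored) to 1554 (without the C17.2a 24 h pair) around 682 in the shared response, 12 to 680 around 145 in C17.2a, 39 to 1178 around 329 in C17.2b and 1 (no time block) to 1118 around 902 between untreated lines. They ran from 0 to 682 around 17 at 6 h, 0 to 690 around 52 at 12 h, 0 to 4305 around 112 at 24 h, 0 to 3342 around 0 for 24 h minus 6 h and 0 to 6 around 0 for the line difference. Ignoring the pairing was not run for single times. No paired analysis by replicate number was possible because the labels carry no replicate numbers. The filter of 1 RPM in at least 3 libraries kept Tagln and Myl9 out of every fit that used it.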

Other observations

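Among the actin genes outside the list, Acta1, the actin of skeletal muscle, was at 3.18 to 5.76 RPM in untreated cells at 6 h and at 13.3 to 16.8 RPM at 24 h, with 0.69 RPM in C17.2a after 24 h of T3. Actc1, the cardiac actin, was at 0 to 0.11 RPM and Actg2, the gamma actin of smooth muscle, at 0.42 to 1.96 RPM in the 12 libraries. The calponin Cnn2 was at 53.7 RPM at 6 h and 319 RPM at 24 h in untreated C17.2a, at 19.75 and 167 RPM in untreated C17.2b, with 37.6 RPM in C17.2a after 24 h of T3.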
